A study of Mus musculus with 12 samples.

Results

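The glucocorticoid receptor and genes that activate it, restrain it or respond to it were examined in mouse heart after ischemia/reperfusion with or without vitamin B12. The 9 genes were chosen by symbol from the 55487 rows of the expression table: the receptors Nr3c1 and Nr3c2, the hormone-activating enzyme Hsd11b1, and the receptor-induced genes Sgk1, Fkbp5, Tsc22d3, Zbtb16, Klf9 and Errfi1. Each symbol named 1 row, and all 9 were among the 13001 genes with an FPKM (read fragments relative to transcript length, adjusted for library size) of 1 or more in at least 3 libraries. Hearts came from wild-type mice in 4 groups of 3 libraries. Sham mice had a sham operation on normal water, and Sham+B12 mice had the same operation after vitamin B12 at 50 mg/L in the drinking water for 7 days. I/R mice had the left anterior descending coronary artery closed for 45 min and then 24 h of reperfusion, on normal water, and I/R+B12 mice had the same injury after the same B12 water. Strain, sex and age are not given in the labels used here, and the labels do not state how the 3 samples of a group relate beyond being separate samples. P-values therefore measure the spread between these samples.

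Glucocorticoids enter the cell and bind the receptor encoded by Nr3c1, which waits in the cytoplasm in a complex with heat shock proteins and then moves to the nucleus to act on DNA. In the heart the mineralocorticoid receptor encoded by Nr3c2 can bind the same hormone, because the enzyme that inactivates it in kidney is scarce in cardiomyocytes. Hsd11b1 regenerates active hormone from its inert form inside the cell. Fkbp5 is both a target and a brake, since its product joins the receptor complex and lowers hormone binding, and the other targets include a kinase, transcriptional regulators and an inhibitor of growth factor receptors.

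Upstream sequence is shown for Sgk1, the member with the smallest p in both comparisons of the I/R+B12 group, because it was the member whose start-site window held the full palindrome that the receptor is known to bind. RefSeq windows on GRCm38.p6, 250 bases before to 50 after a start site, were used for 7 of the 9 genes, 15 windows in all. No window of Nr3c1 or Zbtb16 was among those searched, so the search says nothing of these genes. The windows were searched on both strands for the palindrome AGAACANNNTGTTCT and for its single arm AGAACA, which overlaps the palindrome. The palindrome was in 3 of 32851 windows of all genes (0.00913%), those of Acnat2, Gm35041 and Sgk1. The Sgk1 window is chr10:21993640-21993939 on the plus strand, and capitals mark the palindrome at bases -189 to -175 from the start site.
Sgk1 window: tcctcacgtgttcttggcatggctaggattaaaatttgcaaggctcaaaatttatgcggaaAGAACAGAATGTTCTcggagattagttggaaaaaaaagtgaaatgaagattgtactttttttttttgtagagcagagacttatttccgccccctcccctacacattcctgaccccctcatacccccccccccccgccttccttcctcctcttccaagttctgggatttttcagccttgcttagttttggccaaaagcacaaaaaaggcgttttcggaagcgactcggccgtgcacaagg

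The single arm was in 19.0% of all windows and in 4 of the 15 windows of the members, 3 of Sgk1 and 1 of Tsc22d3. Those outside the palindrome are shown with 12 bases on each side, with the arm or its reverse complement in capitals. They are shown because Sgk1 and Tsc22d3, which share the arm, had different levels in the injured B12 hearts. The start sites are those at 21882184 and 21992223 for Sgk1 and at 140600522 for Tsc22d3, and the third Sgk1 window holds a further arm at its edge.
Sgk1 at chr10:21881977-21882006: aagggaatccgtTGTTCTgtgttttctgtg
Sgk1 at chr10:21992198-21992227: aaagtgggactcAGAACAgaaaggcaatag
Tsc22d3 at chrX:140600690-140600719, minus strand: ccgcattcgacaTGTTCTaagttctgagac
A match describes the letters of these windows, and binding was not measured. Windows of Errfi1, Fkbp5, Hsd11b1, Klf9 and Nr3c2 held neither motif, which says only that these letters are not in these windows.

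Some libraries did not lie with their labels, and every comparison below carries them. Judged by the correlation over all tested genes, the library labelled Sham 3 was nearest to I/R+B12 1, and the library labelled I/R 3 was nearest to Sham 2. In the I/R+B12 group, I/R+B12 1 was nearest to I/R 1 (r = 0.979) and I/R+B12 3 to Sham 3 (r = 0.955), so only I/R+B12 2 was nearest to a library of its own group. The summed FPKM of 6 neutrophil markers was 1228 and 1190 in I/R 1 and 2 but 14.6 in I/R 3, and 65.4 in Sham 3 against 6.23 and 10.7 in Sham 1 and 2. The summed level of 10 cardiomyocyte markers ran from 42313 to 67217 FPKM over all libraries, so heart muscle RNA was abundant in each. The adrenal enzymes Cyp11b1 and Cyp11b2, the kidney marker Umod and 3 lung markers were listed at 0 in all 12 libraries. Estimated depth was 25.5 to 29.75 M fragments per library, so that a 1500 nt transcript at 1 FPKM was read from 30.6 to 35.7 fragments. Differences below are log2 differences of FPKM + 1 from limma with their SE, p is Benjamini-Hochberg adjusted over all tested genes, a gene is called at an adjusted p under 0.05, and ± gives the SD of 3 libraries.

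The glucocorticoid receptor transcript was highest in I/R hearts and lower in I/R hearts that had received B12. Nr3c1 (ENSMUSG00000024431) was at 10.99, 11.4 and 8.03 FPKM in Sham 1, 2 and 3, and at 7.75, 8.56 and 9.90 in the Sham+B12 libraries. The I/R libraries had 12.2, 12.3 and 14.2 and the I/R+B12 libraries 9.26, 8.01 and 7.78. All 3 I/R libraries, I/R 3 included, lay above the other 9. In order of group means the levels were 12.9 ± 1.14 in I/R, 10.1 ± 1.83 in Sham, 8.74 ± 1.09 in Sham+B12 and 8.35 ± 0.796 in I/R+B12, and the lower 3 overlapped. The difference of I/R+B12 from I/R was -0.58 (SE 0.15, 95% interval -0.91 to -0.24, adjusted p = 0.0857), which did not pass the test. The median of all tested genes in that comparison was -0.21, and with median-ratio scaling, which sets that median to 0, Nr3c1 was at -0.35 (adjusted p = 0.182). Without I/R+B12 1 it was called (-0.64, adjusted p = 0.0126). Against Sham, I/R hearts differed by 0.34 (adjusted p = 0.427).

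Nr3c2, the mineralocorticoid receptor, had the lowest level of the 9 genes. It was at 3.04, 3.33 and 3.84 FPKM in Sham and at 2.29, 2.98 and 4.01 in Sham+B12. The I/R libraries had 2.61, 2.55 and 3.44, and the I/R+B12 libraries 2.43, 0.62 and 1.57. The I/R+B12 libraries lay below all 3 I/R libraries and overlapped Sham+B12 through Sham+B12 1. The difference was -0.73 (SE 0.26, adjusted p = 0.0798) from Sham+B12 and -0.66 (adjusted p = 0.128) from I/R, neither of them called. Without I/R+B12 1 both were called (-0.98, adjusted p = 0.0124, and -0.92, adjusted p = 0.0135), where 19.3% and 30.3% of all tested genes were called lower. Over 21 alternatives the difference from Sham+B12 ran from -1.1 to -0.44 and was called in 2. That from I/R ran from -1.02 to -0.34 and was called in 1. Because FPKM is per length, the receptors can be set against each other: Nr3c1 was 3.04 ± 0.828 times the level of Nr3c2 in Sham, 2.91 ± 0.459 in Sham+B12, 4.55 ± 0.365 in I/R and, with B12, 7.23 ± 4.96. The last mean rests on I/R+B12 2, where the ratio was 12.9, while I/R+B12 1 and 3 had 3.81 and 4.96.

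Hsd11b1, which makes active hormone locally, did not separate the groups. Its FPKM was 19.8, 18.3 and 26.0 in Sham, 26.7, 24.8 and 19.5 in Sham+B12, 26.7, 26.9 and 17.9 in I/R, and 21.5, 18.6 and 19.4 in I/R+B12. All 4 groups overlapped, and the libraries labelled Sham 3 and I/R 3 were each apart from the other libraries of their group, in opposite directions. The difference of I/R+B12 was -0.23 against Sham+B12 (95% interval from limma -0.65 to 0.18, adjusted p = 0.412) and -0.23 against I/R (adjusted p = 0.433).

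**Figure D1:**
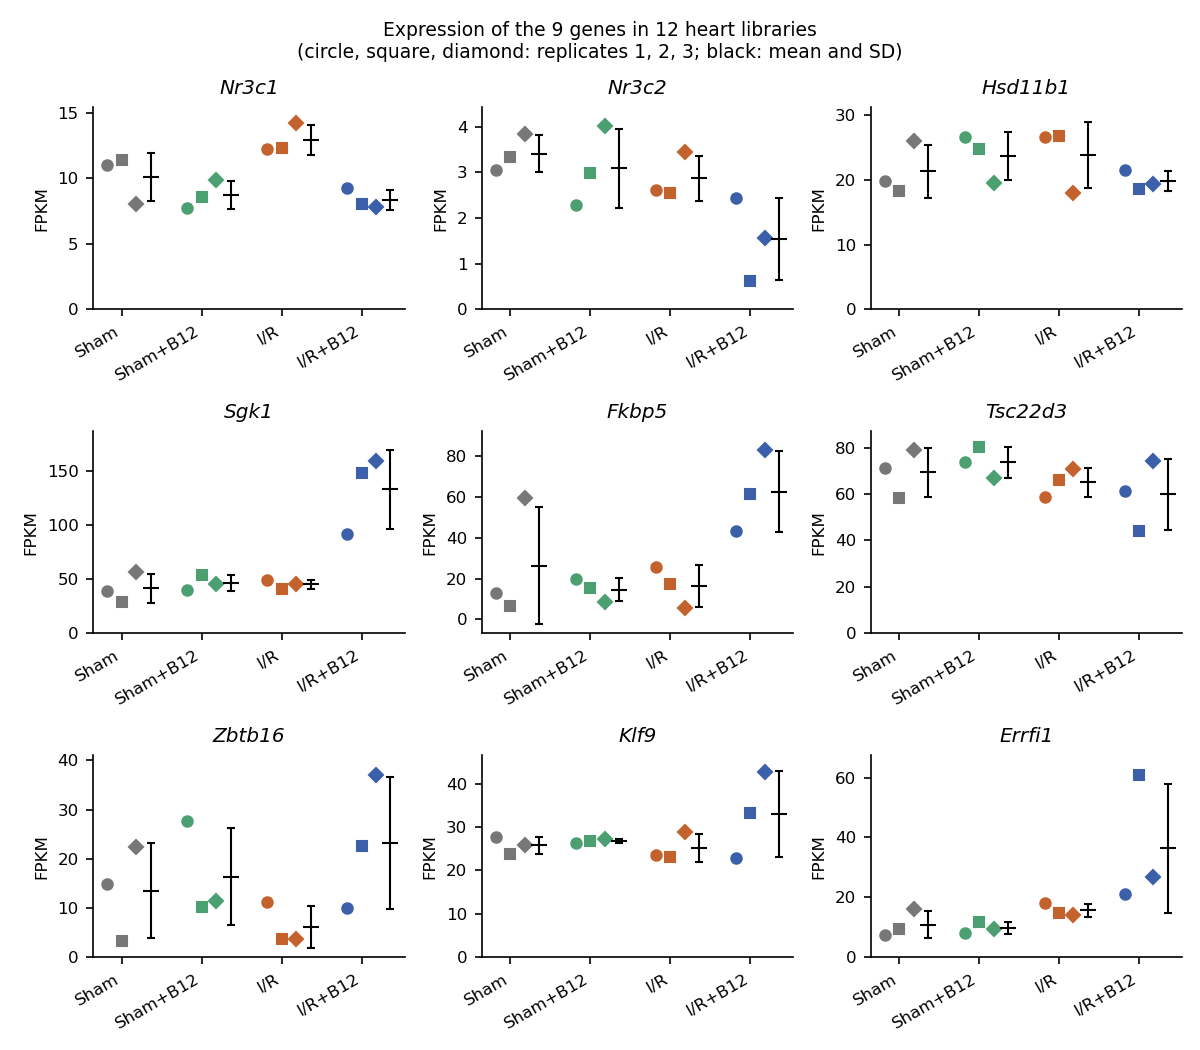
FPKM of the 9 genes (y axis, linear, 1 panel per gene) in the 12 libraries by group (x axis), with circle, square and diamond for replicates 1, 2 and 3 and a black bar for mean and SD. Sgk1 lay between 91.7 and 159.2 in I/R+B12 and at or below 56.4 elsewhere, and Nr3c1 was highest in I/R.

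Sgk1 encodes a kinase that regulates ion channels and cell survival and is an early target of both receptors. On mm10 the gene (ENSMUSG00000019970) spans chr10:21882184-21999903 on the plus strand. Its FPKM was 38.6, 29.2 and 56.4 in Sham, 39.6, 54.0 and 45.4 in Sham+B12, 49.4, 40.7 and 45.9 in I/R, and 91.7, 148.8 and 159.2 in I/R+B12. All 3 I/R+B12 libraries were above the other 9, and the remaining groups overlapped one another. Group means were 133.2 ± 36.3 in I/R+B12, 46.3 ± 7.24 in Sham+B12, 45.3 ± 4.37 in I/R and 41.4 ± 13.8 in Sham. In injured hearts with B12 the level was 2.87-fold that of Sham+B12, a log2 difference of 1.47 (SE 0.25, adjusted p = 0.019), and the gene was called. Against I/R on normal water it was 2.94-fold higher by means (1.50, 95% interval 0.95 to 2.05), with an adjusted p of 0.0739.

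The call for Sgk1 against Sham+B12 depended on single libraries: without I/R+B12 2 the difference was 1.37 (adjusted p = 0.0627), and without Sham+B12 1, 2 or 3 the adjusted p was 0.0881, 0.0524 or 0.0895. Against I/R it was called without I/R+B12 1 (1.75, adjusted p = 0.000878) and without Sham 3 (adjusted p = 0.0311). The interaction, the I/R difference with B12 minus that without, was 1.30 (SE 0.36, adjusted p = 0.387), and without I/R+B12 1 it was 1.55 (adjusted p = 0.0154). In hearts on normal water, I/R and Sham differed by 0.17 (adjusted p = 0.792).

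Errfi1 was the other member called. Its product, also known as Mig6, binds and inhibits the epidermal growth factor receptor family. The gene (ENSMUSG00000028967) lies at chr4:150853919-150868892 on the plus strand of mm10. Its FPKM was 7.30, 9.25 and 16.04 in Sham, 8.16, 11.9 and 9.35 in Sham+B12, 18.1, 14.9 and 13.98 in I/R, and 21.1, 61.0 and 26.9 in I/R+B12. The I/R+B12 libraries were again above all others, and I/R+B12 2 was far above the other pair of its group. The difference of I/R+B12 from Sham+B12 was 1.66 (SE 0.36, 3.71-fold by means, adjusted p = 0.0265). It was 1.22 (adjusted p = 0.0693) without I/R+B12 2, and the adjusted p was 0.1004, 0.0629 or 0.0967 without Sham+B12 1, 2 or 3. It was also over the threshold with the compared groups alone (0.0583) and with no filter on low values (0.062). Against I/R the difference was 1.02 (adjusted p = 0.106) and was called without I/R+B12 1 (1.33, adjusted p = 0.0175). I/R and Sham differed by 0.55 (adjusted p = 0.529), with Sham 3 inside the range of I/R.

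Fkbp5, the co-chaperone that lowers receptor affinity, had larger differences than Sgk1 and a wider spread. The gene (ENSMUSG00000024222) lies at chr17:28399094-28517527 on the minus strand of mm10. Its FPKM was 13.0, 6.61 and 59.4 in Sham, 19.6, 15.4 and 8.54 in Sham+B12, 25.9, 17.4 and 5.74 in I/R, and 43.2, 61.5 and 82.8 in I/R+B12. The I/R+B12 libraries were above every library except that labelled Sham 3, which lay among them. I/R 3 had the lowest value of all. The level in I/R+B12 was 4.31-fold that of Sham+B12 (log2 difference 2.06, SE 0.69, 95% interval 0.54 to 3.57, adjusted p = 0.0734) and 3.83-fold that of I/R (2.04, adjusted p = 0.104). Neither was called, although the first passed without Sham 3 (adjusted p = 0.0314), which enters it only through the shared estimate of the spread, and with the compared groups alone (0.0368). It also passed with library weights (2.56, adjusted p = 0.0196) and without both Sham 3 and I/R 3 (0.0118). The second passed with library weights (2.0, adjusted p = 0.0323). Of 22 alternatives, the first was called in 4 and the second in 1. Between I/R and Sham the sign turned with the libraries kept: -0.32 (adjusted p = 0.871) with all of them and 1.11 without those labelled Sham 3 and I/R 3.

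**Figure D2:**
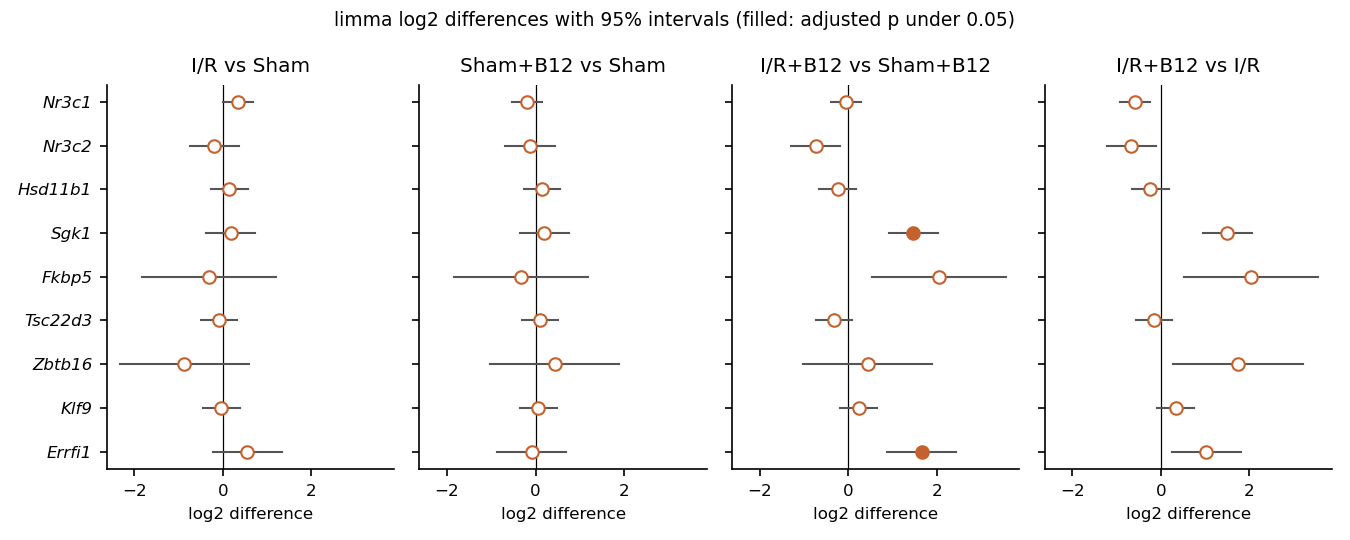
limma log2 differences (x axis) of the 9 genes in 4 comparisons, with 95% intervals as bars and filled points for an adjusted p under 0.05. The filled points are Sgk1 at 1.47 and Errfi1 at 1.66, both in I/R+B12 against Sham+B12.

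Tsc22d3, Zbtb16 and Klf9 were not called in any comparison when all 12 libraries counted equally. With library weights, Zbtb16 was called in I/R+B12 against I/R (2.54, adjusted p = 0.0176), and Klf9 there (0.67, adjusted p = 0.00624), against Sham+B12 (0.47, adjusted p = 0.0423) and in the interaction (0.63, adjusted p = 0.0396). Tsc22d3 encodes GILZ, a leucine zipper protein that mediates anti-inflammatory actions of glucocorticoids, and its FPKM was 71.0, 58.1 and 79.1 in Sham, 73.8, 80.4 and 66.8 in Sham+B12, 58.6, 65.9 and 70.9 in I/R, and 61.2, 44.0 and 74.3 in I/R+B12. All groups overlapped, and the lowest value was in I/R+B12 2, the library with the highest Errfi1. Its difference was -0.32 from Sham+B12 (95% interval from limma -0.73 to 0.08, adjusted p = 0.249) and -0.15 from I/R (95% interval -0.55 to 0.26, adjusted p = 0.62). The upper bounds, 0.08 and 0.26, lie below the lower bounds for Sgk1 in the same comparisons, 0.92 and 0.95. The difference between the genes was not itself tested.

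Zbtb16, which encodes the zinc finger repressor PLZF, varied widely within groups. Its FPKM was 15.0, 3.31 and 22.3 in Sham, 27.7, 10.2 and 11.4 in Sham+B12, 11.2, 3.68 and 3.62 in I/R, and 10.04, 22.6 and 37.0 in I/R+B12. All groups overlapped, I/R+B12 and I/R through I/R+B12 1 and I/R 1. The mean in I/R+B12 was 3.77-fold that of I/R (log2 difference 1.74, adjusted p = 0.126), and without I/R+B12 1 the gene was called (2.22, adjusted p = 0.0349). Against Sham+B12 the difference was 0.44 (adjusted p = 0.672).

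Klf9, a Krüppel-like factor that responds to glucocorticoids and thyroid hormone, was the steadiest target outside I/R+B12. Its FPKM was 27.7, 23.8 and 25.9 in Sham, 26.4, 26.8 and 27.4 in Sham+B12, 23.6, 23.2 and 28.8 in I/R, and 22.9, 33.2 and 42.8 in I/R+B12. I/R+B12 2 and 3 were above all other libraries, while I/R+B12 1 was the lowest of the 12. The difference was 0.24 from Sham+B12 (adjusted p = 0.397) and 0.34 from I/R (adjusted p = 0.256), and without I/R+B12 1 both were called (0.47, adjusted p = 0.0324, and 0.57, adjusted p = 0.013). Over 22 alternatives the first ran from 0.037 to 0.47 and the second from 0.13 to 0.67. Each was called in 2 of them.

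Counted over the 9 genes, 2 were called in I/R+B12 against Sham+B12, both higher, where 10.4% of all tested genes were called, 6.78% higher and 3.62% lower. In that comparison 3 members did not overlap between the groups (Sgk1, Fkbp5 and Errfi1), against 32.4% of all tested genes, and 4 had an unadjusted p under 0.05, against 32.3%. The members' median difference was 0.24 and that of all tested genes -0.02. In I/R+B12 against I/R none was called, as for all tested genes (0%), 6 had an unadjusted p under 0.05 (28.5% of all) and 5 did not overlap (23.2% of all), and the members' median was 0.34 where that of all tested genes was -0.21. The 5 were Nr3c1 and Nr3c2, lower with B12, and Sgk1, Fkbp5 and Errfi1, higher. The comparisons share the I/R+B12 libraries and are not independent of each other.

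In I/R against Sham limma called none (0% of all tested genes), none had an unadjusted p under 0.05 (11.7% of all), and Nr3c1 alone did not overlap between the groups (22.4% of all). The members' median there was -0.04 and that of all tested genes 0.13, which was 0.0039 with median-ratio scaling. In Sham+B12 against Sham limma also called none (0% of all), none had an unadjusted p under 0.05 (1.69% of all) and none was free of overlap (10.5% of all). There the differences ran from -0.33 for Fkbp5 to 0.43 for Zbtb16, each with an adjusted p of 0.999. The interaction gave no call (0% of all) and 3 members with an unadjusted p under 0.05 (12.3% of all), namely Sgk1 at 1.30, Fkbp5 at 2.37 (adjusted p = 0.401) and Errfi1 at 1.11 (adjusted p = 0.406). Without I/R+B12 1 the members called went from 0 to 6 in I/R+B12 against I/R (34.2% of all tested genes), from 0 to 1 in the interaction (14.3% of all) and from 2 to 4 in I/R+B12 against Sham+B12 (29.7% of all). Without I/R+B12 2, or without any single Sham+B12 library, none was called in I/R+B12 against Sham+B12. Of all tested genes, 0.38% were called there without I/R+B12 2, and 0%, 0.247% and 0% without Sham+B12 1, 2 and 3.

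RNA of other cells moved between the same groups, and its part in the members' levels was not tested. In bulk tissue fewer cells of a type and less RNA per cell cannot be told apart. The summed neutrophil markers were 0.84 to 33.7 FPKM in Sham+B12 and 105.9 to 2017 in I/R+B12. Of these 6 markers, 3 were called higher, beside 6.78% of all tested genes. Within I/R+B12, neutrophil markers were lowest in I/R+B12 3, the library with the highest Sgk1, Fkbp5, Zbtb16 and Klf9, and highest in I/R+B12 2, the library with the highest Errfi1. The 7 fibroblast markers summed to 760 to 801 FPKM in I/R, against 355 to 434.5 under I/R+B12, and the 7 macrophage markers to 314 to 419 and 121 to 277. Not every marker moved with its sum. Pdgfra and Tcf21 overlapped between I/R and I/R+B12, and Pdgfra was lower in Sham+B12, at 7.94 to 8.31. Of the macrophage markers, only Cd163 had a higher mean in I/R+B12 (13.2) than in I/R (12.5). Neither the fibroblast nor the macrophage list had a called gene in either comparison of I/R+B12. The 10 cardiomyocyte markers had none called. In I/R+B12 against Sham+B12, 2 of 7 pericyte and smooth muscle markers were called lower, beside 3.62% of all tested genes. There 1 of 6 endothelial markers was called higher (6.78% of all tested genes), but that list's median was -0.05. Pecam1, Cdh5 and Egfl7 had higher means in I/R+B12 than in Sham+B12, and Kdr, Tek and Tie1 lower ones.

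Across the 12 libraries some members moved together, and the correlations below describe libraries that share 4 groups and have no p. Sgk1 and Errfi1 had r = 0.87 (Spearman's rho 0.89), and r was 0.66 after subtraction of group means. Sgk1 and Fkbp5 had r = 0.81 (rho 0.77) and 0.65 after subtraction. Fkbp5 and Zbtb16 had r = 0.74 (rho 0.69) and 0.78 after subtraction. The receptor went the other way: Nr3c1 with Zbtb16 gave r = -0.83 (rho -0.83) and with Fkbp5 r = -0.69 (rho -0.66), and after subtraction -0.74 and -0.94. Before subtraction, r without the 2 libraries farthest from the median of Nr3c1 was -0.73 and -0.61. The correlations after subtraction were not recomputed without the libraries labelled Sham 3 (Nr3c1 8.03, Fkbp5 59.4 FPKM) and I/R 3 (14.2 and 5.74). For both genes these 2 stood apart from the other libraries of their labels. Tsc22d3 had r with the other members from -0.60 (Errfi1) to 0.62 (Nr3c2).

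**Figure D3:**
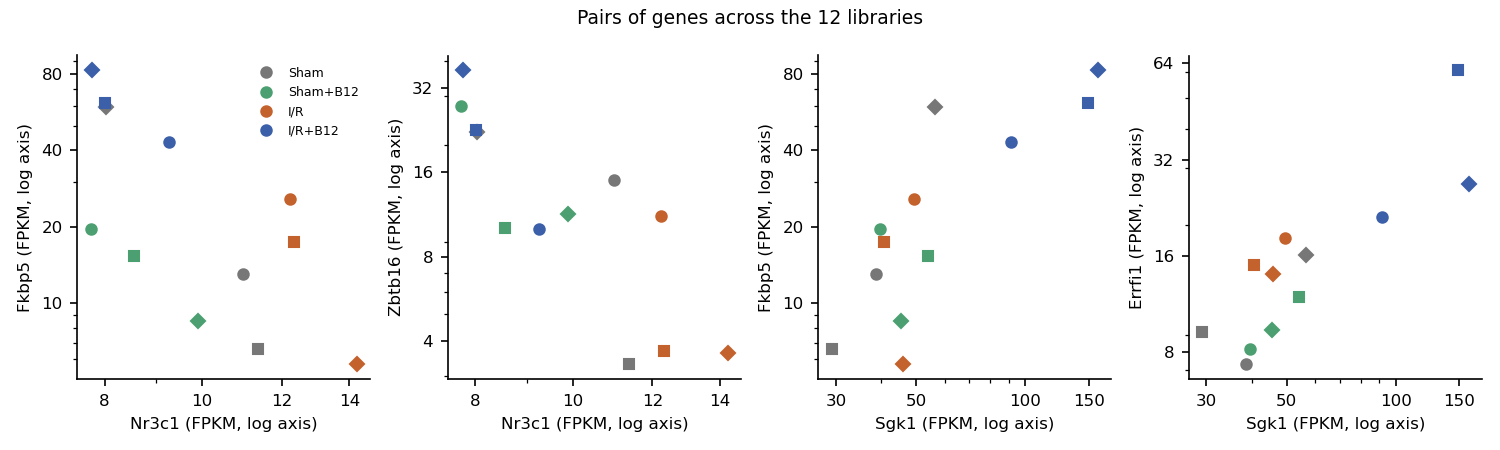
FPKM of 4 pairs of members in the 12 libraries, both axes logarithmic, coloured by group with circle, square and diamond for replicates 1, 2 and 3. Fkbp5 and Zbtb16 tended to be higher where Nr3c1 was lower (r = -0.69 and -0.83), and Sgk1 where Fkbp5 and Errfi1 were higher (r = 0.81 and 0.87). Exceptions were Sham+B12 1, lowest for Nr3c1 with Fkbp5 at 19.6, and Sham 3, with Fkbp5 at 59.4 and Sgk1 at 56.4. The library labelled Sham 3 lay beside I/R+B12 libraries in both Nr3c1 panels, and near the I/R libraries in the panel of Sgk1 and Errfi1.

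Genes outside the list whose levels followed each member most closely are named by their r over the 12 libraries. For Sgk1 they were Tatdn2, Socs7 and Stc1 (each 0.96), for Errfi1 Rnf19a (0.98), Rlf (0.98) and Ifrd1 (0.97), and for Fkbp5 Qsox1, Tent5b and Msrb1 (each 0.96). Nr3c2 was followed by Lbh (0.98), Ralgapa2 (0.97) and Akap1 (0.96), and Nr3c1 by Gtpbp10 (0.94), Ifi44 (0.94) and Cdca8 (0.92). For Zbtb16 they were Fam107a (0.94), Glul (0.92) and Fry (0.90), for Klf9 Bmyc (0.92), Atg14 (0.91) and Trp53inp1 (0.89), for Tsc22d3 Bloc1s6 (0.91), Marchf9 (0.89) and Prodh (0.88), and for Hsd11b1 Prkd1 (0.89), Terf2 (0.85) and Prkar1b (0.81). For Klf9 the rank correlation with Trp53inp1 was 0.47, well under its r.

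The chaperone cycle keeps the receptor ready to bind hormone. Of 27 tested genes of receptor activation and chaperoning, 3 were called higher and 1 lower in I/R+B12 against Sham+B12, with a median of 0.28. As given above, 6.78% of all tested genes were called higher and 3.62% lower in that comparison, and the list's share of calls, 4 of 27, was near the 10.4% of all genes. The Hsp40 gene Dnaja1 had 15.7, 17.4 and 17.8 FPKM in Sham+B12 and 35.3, 30.4 and 25.2 in I/R+B12 (0.79, adjusted p = 0.0208). Every library of I/R, at 37.7, 31.3 and 35.6, was also above every Sham library, at 17.5, 19.2 and 15.9, and I/R 3 was thus with its label for this gene (0.95, adjusted p = 0.342). Dnajb1, another Hsp40 (1.36, adjusted p = 0.0277), and Crtc2, a transcriptional coactivator (0.88, adjusted p = 0.0364), were higher, and the importin Ipo13, which carries the receptor into the nucleus, was lower (-0.87, adjusted p = 0.0288). Ppid, the Cyp40 co-chaperone that competes with Fkbp5 for Hsp90, had 21.1, 21.4 and 18.0 FPKM in I/R and 14.7, 11.8 and 10.8 in I/R+B12. It had 12.2, 12.6 and 9.87 in Sham and 11.1, 16.85 and 14.6 in Sham+B12, so I/R was the high group. I/R and I/R+B12 did not overlap (-0.67, adjusted p = 0.0857), as for 6 of the 27 and 23.2% of all tested genes. Nrip1, a receptor corepressor, was at 0.60 in that comparison (adjusted p = 0.0945), and Ptges3, the p23 co-chaperone, at 0.62 in I/R against Sham (adjusted p = 0.378).

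Other glucocorticoid-induced genes gave 5 called higher and 1 lower of 30 tested in I/R+B12 against Sham+B12 (median 0.57), beside 6.78% and 3.62% of all tested genes. Those higher were Bcl6, a transcriptional repressor (0.69, adjusted p = 0.0343), Cdkn1a, the cell cycle inhibitor p21 (3.65, 0.0362), Il1r1 (1.41, 0.0378), the metallothionein Mt1 (2.46, 0.042) and the neutrophil and injury protein Lcn2 (6.09, 0.0491), each with its adjusted p from limma. The one that was lower was Cdkn1c, another cell cycle inhibitor (-1.28, adjusted p = 0.0388). Lcn2 was at 3.04 FPKM in I/R 3 and at 210.5 in Sham 3, against the other libraries of those labels, and the neutrophil markers given above went in the same directions. The sizes differed: Lcn2 was 210.5 in Sham 3 and 278.6 in I/R 1, and the summed neutrophil markers were 65.4 and 1228.

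Against I/R none of the 30 was called and the median was 0.41, with 23 above 0. Pdk4, which turns the heart from glucose to fat, had 74.3, 134.3 and 75.4 FPKM in I/R and 141.6, 876.5 and 1028 in I/R+B12 (2.46, adjusted p = 0.0912). The clock gene Per1 had 12.1, 12.7 and 9.39 in I/R and 13.9, 41.2 and 61.5 in I/R+B12 (1.47, adjusted p = 0.0899), and Cdkn1a 40.3, 31.0 and 10.4 against 63.0, 359.6 and 410.3 (3.10, adjusted p = 0.0919). Each was free of overlap, with I/R+B12 1 nearest to I/R. In that comparison 7 of the 30 were free of overlap, beside 23.2% of all tested genes. Without I/R+B12 1, 9 of the 30 were called higher and 2 lower, where 3.82% of all tested genes were called higher and 30.3% lower. In I/R against Sham the median was 0.01, and -0.14 with median-ratio scaling, and the genes with the smallest p were Anxa1 (0.71, adjusted p = 0.378), Il1r1 (1.04, 0.392) and Pdk4 (-1.63, 0.423).

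Glucocorticoids are known to repress cytokine, chemokine and adhesion genes in inflammation. Of 16 such genes tested, 6 were called higher and none lower in I/R+B12 against Sham+B12 (median 2.39), beside 6.78% and 3.62% of all tested genes: the chemokines Cxcl2 (5.82, adjusted p = 0.025), Cxcl1 (5.78, 0.025) and Ccl2 (4.99, 0.0378), the cytokines Il1b (4.71, 0.0305) and Il6 (4.22, 0.0283), and the adhesion molecule Icam1 (1.99, 0.0361). Il6 was listed at 0 in all 3 Sham+B12 libraries and at 8.68, 74.7 and 7.84 FPKM in I/R+B12. The I/R+B12 2 library had the highest Cxcl1, Cxcl2 and Il6 and also the highest neutrophil markers, at 2017. Against I/R the list had no call and a median of 0.67, which was -0.18 when I/R+B12 2 was left out and -0.23 when I/R 3 was. There Nos2 was at -1.07 (adjusted p = 0.0888), Cxcl2 at 2.66 (0.173) and Ptgs2 at 1.47 (0.195). In I/R against Sham all 16 differences were above 0 (median 1.47), led by Ccl7 (3.31, adjusted p = 0.407), Il1b (2.61, 0.422) and Ccl2 (2.92, 0.423), with none called. With library weights 14 of the 16 were called higher (27.2% of all tested genes), and without Sham 3 and I/R 3 2 were (0.397% of all).

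**Figure D4:**
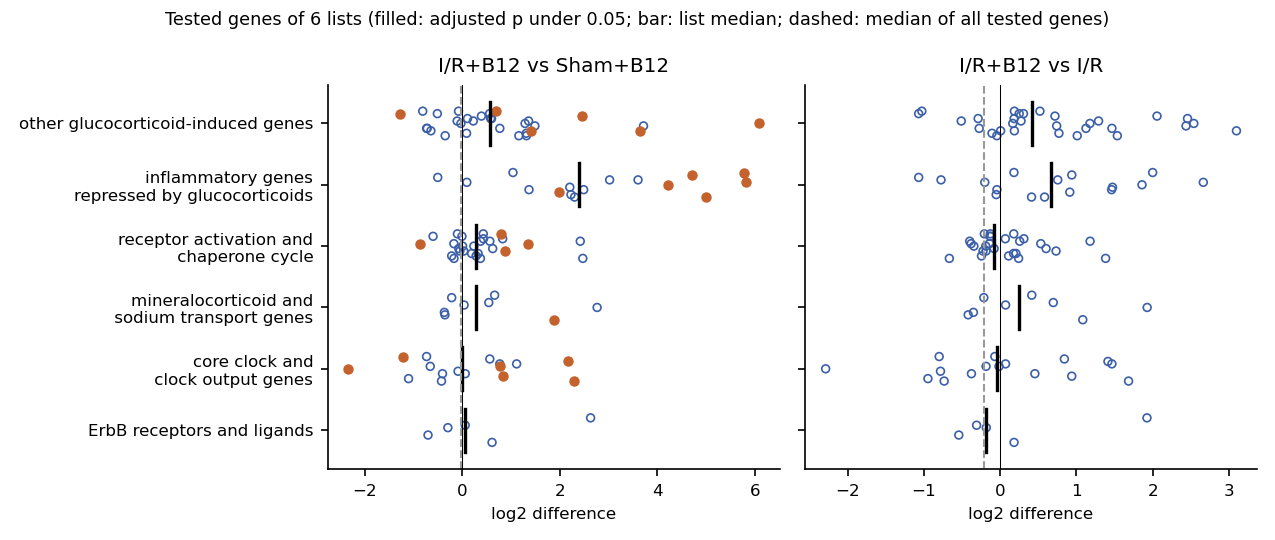
log2 differences (x axis) of the tested genes of 6 lists in I/R+B12 against Sham+B12 and against I/R, with filled points for an adjusted p under 0.05, a black bar at the list median and a dashed line at the median of all tested genes. Inflammatory genes had a median of 2.39 and other glucocorticoid-induced genes 0.57 in the first comparison, where the median of all genes was -0.02.

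Of 16 tested genes of the circadian clock, which glucocorticoids help to set, 4 were called higher and 2 lower against Sham+B12 (median -0.01), beside 6.78% and 3.62% of all tested genes. Dbp, a clock output factor, had 83.3, 81.0 and 101.7 FPKM in Sham+B12 and 25.8, 11.4 and 15.7 in I/R+B12 (-2.33, adjusted p = 0.0226). Per3 was also lower (-1.22, 0.0274), while Nfil3 (2.17, 0.0231), Arntl (2.28, 0.0231), Cry1 (0.84, 0.0327) and Clock (0.78, 0.0431) were higher. Dbp was at 32.4 in Sham 3 and 114.7 in I/R 3, outside the other libraries of those labels. Against I/R the list had no call (median -0.04, and 0.17 with median-ratio scaling), with Dbp at -2.29 (adjusted p = 0.0739), Cry1 at 0.94 (0.077) and Nr1d2 at -0.73 (0.0794). The hour of tissue collection is not given in the labels used here, and its part in these values was not tested. In I/R against Sham the smallest p were those of Clock (0.48, 0.423), Nr1d2 (0.40, 0.427) and Bhlhe40 (0.74, 0.48).

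Genes of mineralocorticoid action and sodium transport, the setting in which Sgk1 is best known, gave 1 call of 8 against Sham+B12 (median 0.29), a share near the 10.4% of all tested genes. It was Adamts1, a secreted protease (1.87, adjusted p = 0.0416). Edn1, which encodes the vasoconstrictor endothelin, was at 0.66 (adjusted p = 0.098). Against I/R none was called, with Adamts1 at 1.08 (adjusted p = 0.181). In I/R against Sham Adamts1 (0.66, 0.595), Rgs2 (-0.27, 0.683) and Ndrg2 (-0.15, 0.722) had the smallest p.

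The ErbB receptors that Errfi1 inhibits, with their ligands, gave no call among 5 tested genes (median 0.06 against Sham+B12, where 10.4% of all tested genes were called). The ligand Hbegf had 5.96, 4.32 and 4.14 FPKM in Sham+B12 and 13.8, 127.7 and 22.7 in I/R+B12 (2.63, adjusted p = 0.0529). Its highest library, I/R+B12 2, was also the highest for Errfi1. Egfr was at 0.61 (0.0632) and Erbb3 at -0.70 (0.0889). Against I/R the values were 1.93 for Hbegf (0.14), -0.54 for Erbb3 (0.185) and -0.31 for Erbb2 (0.389), and in I/R against Sham -0.22 for Erbb3 (0.738), 0.14 for Erbb2 (0.818) and -0.40 for Hbegf (0.852), all with adjusted p from limma.

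The calls in these lists against Sham+B12 also depended on single libraries. Without Sham+B12 1, 2 or 3 none of the 6 lists had a call, where 0%, 0.247% and 0% of all tested genes were called. Without I/R+B12 2, or with no filter on low values, the list of receptor activation had 1 call and the others none. In those fits 0.38% and 0.971% of all tested genes were called. Library weights gave, for I/R against Sham, 6 calls higher and 2 lower in the list of receptor activation, 7 and 3 among the glucocorticoid-induced genes and 2 and 5 among the clock genes, beside 27.2% and 6.75% of all tested genes. In the interaction no list had a call. The smallest p were those of Dbp (-2.50), Arntl (2.19), Cry1 (0.97) and Ppid (-0.93), each with an adjusted p of 0.387, then Nrip1 (0.68), Crtc2 (0.79), Cdkn1c (-1.29), Ptgds (-1.41), Cdkn1a (3.39) and Hbegf (3.03), each at 0.401. Egfr (0.59), Erbb3 (-0.48), Nos2 (-0.92), Cxcl1 (3.42), Cxcl2 (3.43) and Adamts1 (1.21) had adjusted p of 0.408 to 0.541. In Sham+B12 against Sham the limma adjusted p of each gene named here was 0.999, while the smallest over all tested genes was 0.537. Bcl6 (-0.38), Arrdc2 (0.77) and Gpx3 (-0.30) led the glucocorticoid-induced genes in that comparison. The first of each other list were Ppid (0.26), Ep300 (-0.22) and Bag1 (-0.18); Ccl2 (-1.65), Cxcl1 (-1.42) and Il1b (-1.16); Clock (-0.32), Nr1d1 (-0.38) and Arntl (-0.51). The last lists were led by Egfr (-0.41), Hbegf (-1.11) and Erbb2 (-0.22), and by Rgs2 (-0.27) and Ndrg2 (-0.12).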

How the data were processed

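Poly(A)-selected RNA of 12 mouse hearts was sequenced as read pairs, per the labels' protocols. The authors deposited 1 table of FPKM per gene, and HISAT2, StringTie and mm10 are named in the submitters' processing notes. The annotation release is not given in the sources used here. Library columns were matched to samples by title, and 4 group mean columns were not used. Positions came from GENCODE M21, which held 55227 of the IDs. Values were analysed as log2(FPKM + 1) for the 13001 genes that reached 1 FPKM in 3 libraries or more. A single limma fit (version 3.58.1, R 4.3.3) with 4 group means and a mean-variance trend covered the 12 libraries and gave 5 contrasts. Tests were two-sided, with Benjamini-Hochberg adjustment within each contrast. With 3 libraries against 3, an exact permutation test cannot give a p below 0.1, and none is reported. Depth was inferred from the spacing of low values, using transcript length minus 300 nt; 83.7% to 90.6% of these values fell within 0.15 of a whole number of fragments, and such estimates cover counting error only. The fit was tested on simulated data with independent spread, capped for each gene, and no library out of place with its label. That test therefore does not cover libraries such as Sham 3 and I/R 3.

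The members, the gene lists and the marker lists were chosen with earlier results of these data known. All 9 members were named in every comparison, and from each list and contrast the 3 tested genes with the smallest p, a few of which are left out here. Other called genes of a list were named after their values were seen, as were the windows and libraries shown. For likeness, the 3 genes with the highest r over 12 libraries were named, leaving out predicted genes. Replicate numbers were not used as pairs: after removal of group means, same-number libraries had a mean r of 0.01 over 18 pairs. The alternatives changed the pseudocount (0.1 or 0.5), the filter (none, or 5 FPKM) or the scaling (median-ratio or quantile), fitted the compared groups alone, weighted libraries, blocked on the replicate number or dropped each library in turn. Dropping Sham 3 together with I/R 3 was added after seeing the data. Sequences came from RefSeq (GRCm38.p6), and figures were drawn with matplotlib 3.10.9.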

Additional observations from a re-analysis of the deposited data

How the results depend on the processing

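Of the members' differences, Sgk1 against Sham+B12 ran from 1.33 to 1.72 over 22 alternatives and was called in 18, and Errfi1 from 1.22 to 1.96 and in 16. With 3 libraries a group, 1 library moves most counts. In I/R against Sham, all tested genes called, 0 as reported, were 2 with the compared groups alone, 4411 with library weights, 55 without both Sham 3 and I/R 3 and 0 to 1 with 1 library left out; 1 member was called with library weights (Errfi1). Fkbp5 was at 0.34 with library weights and 1.11 without those 2 libraries, and Hsd11b1 at -0.0044 with median-ratio scaling. With 1 library left out Fkbp5 ran from -0.96 to 0.53, Klf9 from -0.14 to 0.017, Sgk1 from -0.046 to 0.42 and Tsc22d3 from -0.20 to 0.015.

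In I/R+B12 against I/R, 0 of all tested genes as reported became 2 with the compared groups alone, 4325 with library weights, 2 with median-ratio scaling, 1 with quantile normalization and 4 without Sham 3 and I/R 3, and 0 to 4409 with 1 library left out. Members called were 6 with library weights and 0 to 6 with 1 library left out. Median-ratio scaling put Hsd11b1 at 0.0067 and Tsc22d3 at 0.098, and Tsc22d3 ran from -0.32 to 0.054 with 1 library left out. In I/R+B12 against Sham+B12, 1352 genes as reported became 351 with the compared groups alone, 3082 with library weights, 262 with no filter and 0 to 3833 with 1 library left out. The 2 members became 5 with library weights, 1 with no filter and 0 to 4 with 1 library left out, and Nr3c1 ran from -0.13 to 0.028.

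The interaction, with 0 calls as reported, gave 1838 genes with library weights, 1 with no filter, 2 without Sham 3 and I/R 3 and 0 to 1840 with 1 library left out; 2 members (Klf9 and Sgk1) were called with library weights and 0 to 1 with 1 library left out. In Sham+B12 against Sham, 3 genes were called with no filter and 0 to 1 with 1 library left out. There Errfi1 was at 0.12 with library weights, 0.0049 with quantile normalization and 0.21 without Sham 3 and I/R 3, Fkbp5 at 0.52 in that last fit and Nr3c2 at 0.057 with library weights. With 1 library left out Errfi1 ran from -0.31 to 0.21, Fkbp5 from -0.98 to 0.52, Nr3c2 from -0.28 to 0.024, Sgk1 from -0.022 to 0.44, Tsc22d3 from -0.028 to 0.19 and Zbtb16 from -0.29 to 0.93. The cause of these changes was not tested.

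With a replicate block, Sgk1 in I/R+B12 against Sham+B12 was at 1.47 (limma adjusted p = 0.0282) and Errfi1 at 1.66 (0.0342), 1057 genes were called, and no call of a member changed. The replicate numbers share no stated litter, batch or day. Nr3c2 was not tested at a filter of 5 FPKM, where its level was too low.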
